A study of Mus musculus with 4 samples.

Results

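This account follows 10 genes that control how the initiation factor eIF2 is dephosphorylated and how ribosomes choose a start codon, and asks where ATF4 sat beside them. They are a small set within 21887 positioned mouse coding genes. ATF4 binding was mapped by ChIP-seq, which sequences the DNA pulled down with an antibody to the factor, in primary cortical neurons from CD1 mouse embryos, taken at about embryonic day 15. A lentivirus was given on culture day 6, and day 11 was the time point. The first group carried a control short hairpin RNA (labelled WT) and the second a hairpin against Opa1, a mitochondrial fusion GTPase (labelled Opa1 knock-down), both with cytosine arabinoside at 2 µM against dividing cells. Of 4 libraries in the series, an ATF4 ChIP from each group gave a peak list and 1 library stands for each condition. The IgG and input libraries, both from control neurons, were not analysed here. The hairpins' delivery and knock-down level are not measured by these files, nor are neuron markers, since ChIP peaks give no RNA levels.

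The genes were chosen by name with their ATF4 peaks already known, so that factors with a listed peak stand beside relatives without one. Distances, folds and counts below are therefore a description, with no test. A gene was linked to a peak when the summit lay inside it or within 50 kb. The authors' fold is enrichment over the peak caller's background, and a tag was taken as a sequenced read counted in the peak. Not every tag number is whole, as the smallest knock-down value is 13.68. With 1 library per condition there is no replicate spread, and intervals on tags cover counting error only. Depth was not given, so tag numbers of the lists are not on a common scale.

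As background, stress kinases phosphorylate the alpha subunit of eIF2. This traps the exchange factor eIF2B, lowers the supply of initiator tRNA to ribosomes and slows translation, while ATF4 mRNA is translated better. Phosphatase complexes built on Ppp1r15a (GADD34) or Ppp1r15b (CReP) remove the phosphate. Eif1 and Eif5 act on the scanning ribosome, Eif1 by holding back starts at poor codons and Eif5 by triggering GTP hydrolysis on eIF2.

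Control neurons had a peak in reach of 3 of the 10 genes (Ppp1r15b, Eif1 and Eif3c). Opa1 knock-down neurons had a peak at 5 of 10, with Eif2s2 and Eif5 added. Over all coding genes, 0.927% had a control summit inside or within 50 kb and 6.23% a knock-down summit. With the window narrowed to 5 kb the genes' counts were again 3 and 5, beside 0.324% and 2.65% of coding genes. Nothing is read from these shares, since the genes were picked for their peaks. Ppp1r15a, Eif2s1 and the kinases Eif2ak3, Eif2ak4 and Eif2ak1 had no peak in reach in either list.

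**Figure D1:**
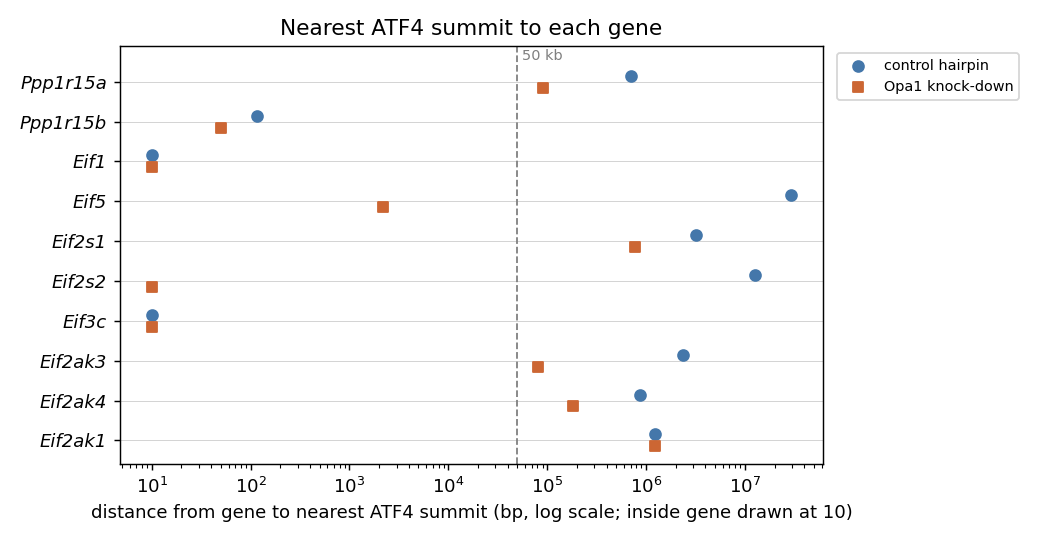
Distance from each of the 10 genes to the nearest ATF4 summit (bp, log axis) in the control list (circles) and the knock-down list (squares), with summits inside a gene drawn at 10 bp. The 5 genes with a peak in reach lie left of the dashed 50 kb line in the knock-down list. The nearest of the other genes, Eif2ak3, lies at 81632 bp.

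Sequence was available for the promoters of 9 of the genes, as windows from 250 bases before to 50 bases after each annotated start (RefSeq, GRCm38.p6, which has mm10 coordinates). The Eif2s2 window is shown because the knock-down peak covers all 300 of its bases, although the summit lies outside it. The Ppp1r15a window is shown because this gene, with no peak in reach, holds the palindromic cAMP-response element. The first is chr2:154892857-154893156 and the second chr7:45526219-45526518, both on the minus strand and printed 5′ to 3′. Capitals mark the first 50 transcribed bases in Eif2s2 and the element TGACGTCA in Ppp1r15a.
Eif2s2: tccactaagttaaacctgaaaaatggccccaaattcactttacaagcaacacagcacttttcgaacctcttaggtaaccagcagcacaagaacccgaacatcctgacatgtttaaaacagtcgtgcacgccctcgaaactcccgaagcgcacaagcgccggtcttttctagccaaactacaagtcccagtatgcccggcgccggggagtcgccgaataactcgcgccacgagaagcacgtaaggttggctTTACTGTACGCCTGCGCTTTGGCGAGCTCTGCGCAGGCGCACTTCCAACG
Ppp1r15a: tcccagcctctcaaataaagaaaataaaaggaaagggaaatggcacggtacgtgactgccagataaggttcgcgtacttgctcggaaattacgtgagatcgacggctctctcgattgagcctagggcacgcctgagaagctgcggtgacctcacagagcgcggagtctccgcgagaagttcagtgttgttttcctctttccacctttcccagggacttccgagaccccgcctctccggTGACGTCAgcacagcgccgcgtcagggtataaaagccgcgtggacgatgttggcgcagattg

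ATF4 pairs with C/EBP proteins on composite elements of the form TGATGNAA. On either strand this motif was in 0 of the 10 windows of the 9 genes (Eif2ak4 has 2 windows), beside 1304 of all 32851 promoter windows (3.97%). Of the windows that overlap a knock-down peak, 30 of 99 held it (30.3%, 95% Clopper-Pearson interval 21.5 to 40.4), and the Eif2s2 window was among the 69 without. The stricter TGATGCAA, a case of TGATGNAA, was in 0.895% of all windows and TGACGCAA in 0.49%, and neither was in a window of these genes. The element TGACGTCA, which reads the same on both strands, was in 1.79% of all windows, in 0 of the 99 under knock-down peaks and, among these genes, in Ppp1r15a alone. There it ran from 12 to 5 bases before the start, and the nearest knock-down peak was 89670 bp from the window. The peaks in Eif1 and Eif3c began 163 and 39 bases beyond those genes' windows in the knock-down list, so the letters under their summits were not read here. The Eif2s2 knock-down summit, chr2:154892842, also lay outside its window, and the peak of 686 bp ran beyond the window's 300 bases. Absence of the motif from that window therefore does not cover the letters under the Eif2s2 summit.

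Among the phosphatase subunits, Ppp1r15b and Ppp1r15a differed in whether a peak was listed. Ppp1r15b encodes the constitutive partner that directs protein phosphatase 1 to eIF2. Its peak was chr1:133130841-133131258 in the control list, with fold 11.29 and 26 tags (95% Poisson interval 17.0 to 38.1). In the knock-down list it was chr1:133130711-133131519, with fold 21.99 and 86 tags (68.8 to 106). Both summits lay just outside the gene (chr1:133131166-133139800), 116 bp (control) and 50 bp (knock-down) from its nearer end. In the authors' order the peak ranked 29 of 93 control peaks and 24 of 952 knock-down peaks, the best rank of any of the 10 genes in both. No other coding gene was closer than Pik3c2b, 22359 bp from the control summit.

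Ppp1r15a encodes the stress-induced counterpart, which restores translation late in the response. It is a short gene of 3352 bp at chr7:45522917-45526268. Its nearest summits were 703846 bp (control) and 90197 bp (knock-down) away. The knock-down peak (fold 8.76, 30 tags) had Fgf21, a stress-induced metabolic hormone, as its nearest coding gene at 975 bp. By this distance, 9.5% of coding genes on chromosomes with a peak lay as near to a knock-down summit as Ppp1r15a did, and 2.05% as near as Ppp1r15b.

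Of the start-codon factors, Eif1 had a peak in both lists and Eif5 in the knock-down list alone. The Eif1 gene is 2151 bp long (chr11:100319949-100322099), and both summits fell inside it, 572 and 568 bp after its start. The control peak, chr11:100320352-100320689, had fold 6.27 and 18 tags (10.7 to 28.4). The knock-down peak, chr11:100320161-100320872, had fold 17.69 and 62 tags (47.5 to 79.5). It ranked 59 in each list. By fold it stood above 94.6% of the knock-down list and above 20.4% of the control list. The tag intervals do not overlap, which also holds for the peaks of Ppp1r15b and Eif3c found in both lists. Tags were not scaled for depth, and those at Eif1 were counted over 338 bp (control) and 712 bp (knock-down).

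Among the knock-down peaks of these genes, the Eif5 site had the lowest fold and the fewest tags. Its summit was 2189 bp before the gene start, in chr12:111535654-111536169, with fold 6.27 and 22 tags (13.8 to 33.3). It ranked 868 of 952 and no coding gene lay between it and Eif5. In the control list the nearest summit to Eif5 was 29429864 bp away, and 91.1% of coding genes on chromosomes with a control peak had a summit at least as near.

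Of the eIF2 subunits, Eif2s2 had a peak and Eif2s1 did not. Eif2s2 encodes the beta subunit, the one that Eif5 binds. Its knock-down peak, chr2:154892499-154893184, straddled the gene start, with the summit 64 bp inside, fold 9.56 and 39 tags (27.7 to 53.3). Eif2s1 encodes the alpha subunit, which carries the phosphorylated serine. The nearest summit to Eif2s1 was 766639 bp away in the knock-down list and 3221227 bp away in the control list. Neither subunit gene had a control peak in reach.

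Eif3c encodes a subunit of eIF3, the scaffold that joins the small ribosomal subunit to the other factors. Its start-proximal peak was in both lists, with summits 489 bp (control) and 499 bp (knock-down) after the start. The control peak, chr7:126565660-126566093, had fold 7.53 and 23 tags (14.6 to 34.5). The knock-down peak, chr7:126565455-126566278, had fold 9.56 and 51 tags (38.0 to 67.1). A second knock-down peak, chr7:126501716-126502334, met the 50 kb limit from 44885 bp away, with fold 8.13 and 34 tags (23.5 to 47.5). It lay inside Atxn2l, an RNA-binding protein gene, and only the distance rule links it to Eif3c.

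**Figure D2:**
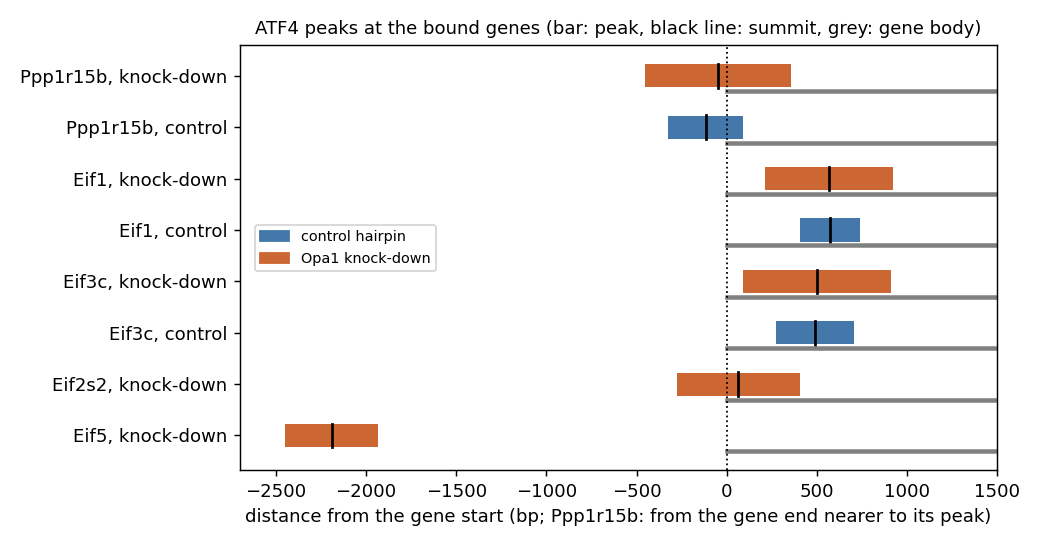
Extent of each peak (coloured bar) and its summit (black line) relative to the gene start in bp, with the first part of the gene body in grey, for the 5 bound genes. Ppp1r15b is drawn from the gene end nearer to its peak. The Eif1 and Eif3c summits sit about 0.5 kb inside the gene in both lists, the Ppp1r15b and Eif2s2 peaks straddle the zero line, and the Eif5 peak lies 2189 bp before it.

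Of the 6 gene and peak pairs in the knock-down list, 4 had the summit within 1 kb of a gene end, as did all 3 control pairs. Over every coding gene and peak pair within the same 50 kb reach, 8.17% did so in the knock-down list (122 of 1494) and 12.9% in the control list (27 of 209). Those pairs came from 733 knock-down and 74 control peaks, since a peak can reach several genes. Nothing is read from the difference, since the genes were picked with their peaks known. The distances to gene ends rest on summits that sit at the middle of the peak. In all 84 control and all 886 knock-down peaks of the commoner score form, the summit was within 1 bp of the midpoint, and the 9 peaks in reach of the 10 genes, 3 control and 6 knock-down, are all of that form. A distance therefore locates the centre of a called interval rather than a separately measured maximum.

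The 3 eIF2 kinases had no peak in reach, and their nearest summits differed widely. Eif2ak3 (PERK, the endoplasmic reticulum stress kinase) had its nearest knock-down summit at 81632 bp (fold 6.69, 26 tags), 2868 bp from Rpia. For Eif2ak4 (GCN2, which senses uncharged tRNA) the nearest knock-down summit was 182324 bp away, inside Fsip1. Eif2ak1 (HRI, which relays mitochondrial stress) was 1237567 bp from a knock-down summit and 1237571 bp from a control summit, the same site beside Bud31. Across coding genes the median distance to a summit on the same chromosome was 0.909 Mb in the knock-down list and 7.43 Mb in the control list. PERK and GCN2 lay nearer than that median in the knock-down list and HRI farther. In the control list all 3 lay nearer than the median, at 2374811 bp (PERK), 875726 bp (GCN2) and 1237571 bp (HRI).

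At the 3 sites found in both lists the knock-down fold was the higher, by 2.82 times at Eif1, 1.95 times at Ppp1r15b and 1.27 times at Eif3c. Over all 80 shared pairs the median of this ratio was 2.26 (middle range from 1.77 to 2.63), and 75 of them had the higher fold after knock-down. Eif1 thus stood above the middle range, with 16 of the 80 pairs higher, Ppp1r15b inside it, and Eif3c below it, with 68 higher. The lists were called separately, so the ratios describe the lists and not a tested change in binding. Some of the 80 pairs also set folds written in differing forms against each other. Tags per kb of peak, which take peak width into account, gave ratios of 1.64 at Eif1, 1.71 at Ppp1r15b and 1.17 at Eif3c, beside a median of 1.53. By that measure Ppp1r15b, not Eif1, had the highest ratio of the 3. The knock-down peaks were the wider, for example 712 bp against 338 bp at Eif1.

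**Figure D3:**
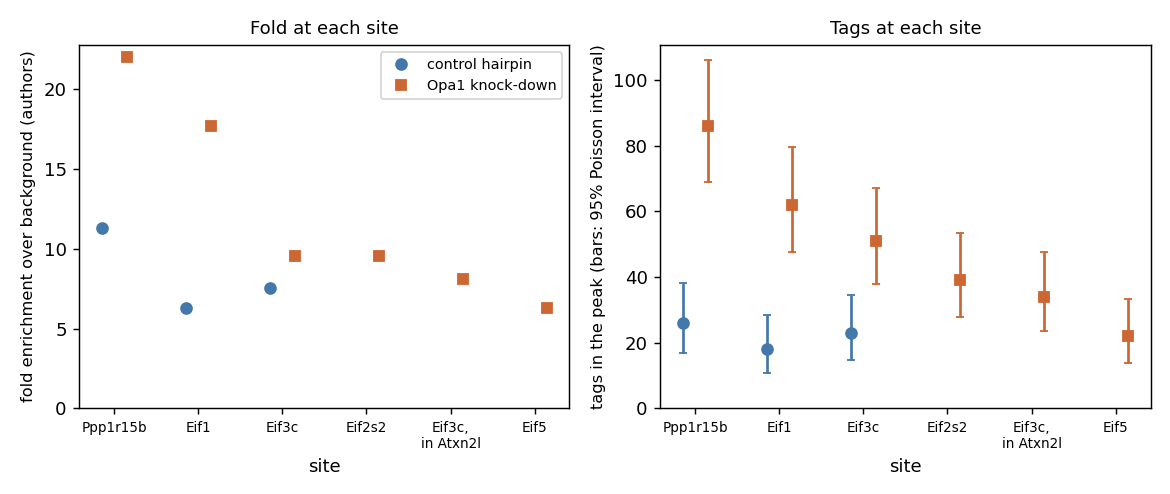
The authors' fold (left) and tags in the peak (right, bars are 95% Poisson intervals) at each site, by list, on axes from 0. Ppp1r15b is highest in both measures in both lists, with 26 control and 86 knock-down tags, and the Eif2s2, Atxn2l and Eif5 sites have no control point because no control peak was listed there.

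**Figure D4:**
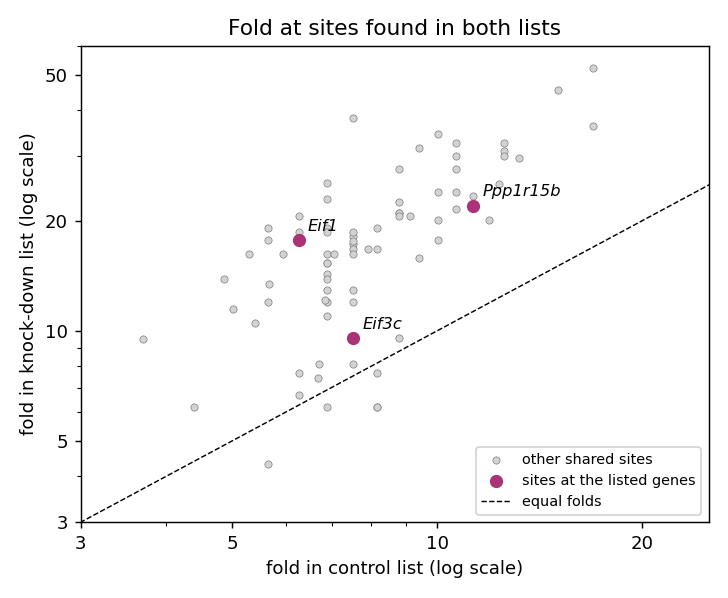
Fold in the control list (x, log axis) against fold in the knock-down list (y, log axis) at the 80 shared pairs, with the 3 sites of the listed genes in purple and a dashed line of equal folds. Eif1 (6.27, 17.69) and Ppp1r15b (11.29, 21.99) lie well above the line, and Eif3c (7.53, 9.56) close to it.

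The sites without a control partner were also the ones with the fewest knock-down tags: Eif5 with 22, the Atxn2l site with 34 and Eif2s2 with 39. The smallest tag number in any control peak was 15, but tags of the lists are not on a common scale, as depth was not given. In the knock-down list as a whole, 8 of 483 peaks with under 30 tags overlapped a control peak (1.66%, 95% Clopper-Pearson interval 0.718 to 3.24). The share was 2.86% from 30 to 39 tags, 11.4% from 40 to 59, 52.0% from 60 to 89 and 88.0% at 90 or more. The tag classes were set after the values were seen. Most knock-down peaks with as few tags as those at Eif5 and Eif2s2 thus had no control partner. Whether the Eif5 and Eif2s2 sites were bound in control neurons was not tested.

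**Figure D5:**
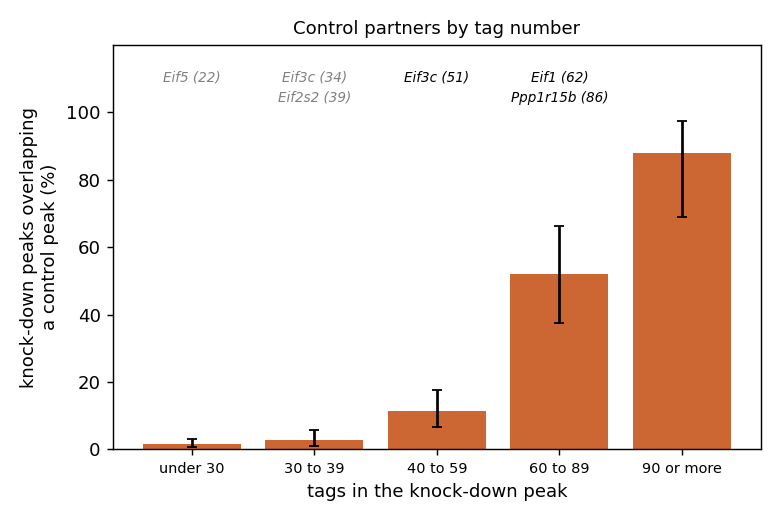
Share of knock-down peaks that overlap a control peak (%, bars, with 95% Clopper-Pearson intervals) by tags in the knock-down peak. The sites of the listed genes are named above their class with their tags, in black where a control peak overlaps; the 3 sites under 40 tags have none, and the 3 sites from 51 tags up have a control peak.

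Of 60 other initiation and eIF2 pathway genes, 0 had a control peak in reach and 3 had a knock-down peak, beside the 0.927% and 6.23% of all coding genes given above. These shares are near that background, so nothing is read from the counts. Eif4ebp1, a repressor of the cap-binding factor eIF4E, had a summit inside the gene, 900 bp from its nearer end, with fold 17.21 and 62 tags (47.5 to 79.5). That is the same tag number as at Eif1, and Eif4ebp1 had no control peak. Of 50 knock-down peaks with 60 to 89 tags, 26 overlapped a control peak (52.0%). Whether the Eif4ebp1 site was bound in control neurons was not tested. Eif3g (eIF3 scaffold) and Eif1a (start-codon scanning) were reached at 16490 and 38617 bp by peaks lying inside Angptl6 (fold 8.6) and Ticam2 (fold 8.13). No peak was in reach of the 5 eIF2B genes, the 3 genes of protein phosphatase 1 catalytic subunits, the remaining kinase Eif2ak2 or the gamma subunit genes Eif2s3x and Eif2s3y. The same held for the 13 listed genes of the eIF4 cap-binding and helicase group.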

How the data were processed

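ATF4 ChIP-seq peaks were called with MACS2 on mm10, per the submitters' processing notes, which also name deepTools and MultiQC. Not given in the sources used here are the aligner, control library, thresholds, duplicate handling and depth. Cross-linking lasted 30 minutes and fragments averaged 150 bp, per the labels' protocols. The authors deposited 1 peak list per ATF4 library, tied to its group by the hairpin named. Each peak carries a tag number, a summit, its length, a fold enrichment (a ratio) and a p-value score. Scores come in 2 forms, so scores were used only to rank. Outside the commoner form (score of at least 50, length equal to the interval) fall 9 control and 66 knock-down peaks. Folds are also written with differing numbers of decimals. Some shared pairs join the differing kinds, for example 5.94483 in control and 16.25 after knock-down.

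Gene positions came from RefSeq GRCm38.p6 (21887 coding genes on autosomes, X and Y), and all 81 listed genes matched by symbol. Starts and strands came from the RefSeq promoter table, which has 9 of the 10 genes. For Ppp1r15b and Eif4ebp1 the nearer gene end was used. Peaks overlapping by at least 1 bp counted as shared. Tags have exact Poisson and shares exact Clopper-Pearson intervals at 95%. No test was run between conditions, and p-values were not computed. Steps were checked on simulated data. Members and lists were chosen with earlier results of these data known. Named genes are the members, other listed genes with a peak in reach, and genes around those peaks; listed genes without a peak were named by group after their counts were seen. Alternatives covered the window, peak position, gene assignment, score, fold, score form, list length, merging, shared-site rule and motif. Computing used scipy 1.17.1, pandas 2.3.3 and numpy 2.4.6 in Python 3.11.15, and plotting matplotlib 3.10.9.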

Additional observations from a re-analysis of the deposited data

How the results depend on the processing

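The counts of the 10 genes, 3 (control) and 5 (knock-down), were unchanged with windows of 5 and 10 kb, any base of the peak, the nearest coding gene alone, the first score form and merged peaks. By score, the better part of each list gave 2 and 4, beside 130 and 767 of all 21887 coding genes. A window of 100 kb gave 3 and 7, beside 317 and 2193. With a fold of at least 10 the counts of the 10 genes fell to 1 and 2, beside 61 and 489 of all coding genes. Among as many top knock-down peaks as the control list has, the knock-down count fell to 2, beside 204 of all coding genes. Both settings enter fewer peaks. Of the 60 other pathway genes, 3 with a knock-down peak became 1 with windows of 5 or 10 kb and with the nearest coding gene alone. The same held with a fold of at least 10 and in the top peaks. Over all coding genes, 1363 with a knock-down peak became 581, 668, 677, 489 and 204 at these settings, in that order. At 100 kb the 3 became 6, and 0 in the control list became 1, beside 2193 and 317 of all coding genes. The Eif1 ratio of 2.82 was 1.64 by tags per kb, and a reciprocal overlap of 50% gave it no value, as its peaks no longer paired; by tags per kb the ratios of 1.95 at Ppp1r15b and 1.27 at Eif3c were 1.71 and 1.17. For TGACGTCA, 1 promoter window of these genes matched in place of 0. The depth behind the lists is not known, which limits what a missing control peak can show. No paired analysis was possible because there was 1 ATF4 library in each group.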

Other observations

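Beyond initiation, 2 of 11 listed genes of elongation and termination had a knock-down peak within 50 kb, and 0 had a control peak, beside 6.23% and 0.927% of all coding genes; nothing is read from so few genes. Eef1a1, the main elongation factor that brings charged tRNAs to the ribosome, was the nearest coding gene to a peak 21687 bp before its start, with fold 6.69 and 28 tags (95% Poisson interval 18.6 to 40.5). Etf1, the release factor that reads stop codons, was reached by 3 knock-down peaks at 20785, 22607 and 26648 bp, all nearer to Hspa9, the mitochondrial HSP70 gene. The strongest of them, 264 bp from Hspa9, had fold 19.5 and 79 tags (62.5 to 98.5). With the window at 5 kb, 0 of the 11 genes had a peak in either list, beside 2.65% (knock-down) and 0.324% (control) of all coding genes.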
